A study of Mus musculus with 32 samples.

Results

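The 9 genes described here encode proteins that shape mitochondria or are mutated in inherited optic atrophy, namely Opa1, Opa3, Mfn1, Mfn2, Dnm1l, Wfs1, Slc25a46, Rtn4ip1 and Tmem126a. They were taken by gene name from an expression table of 26629 named entries, and all 9 were found. They were selected on these FPKM levels in spaceflight and ground control retinas, so the levels and their differences are given as a description, with no p. The number of the 9 that passed the thresholds of the study is given beside the same number over all genes, also for other treatments, and nothing is read from it. Retinas came from female C57 BL/6J mice, labelled as 21 weeks old. Spaceflight mice spent 37 days in NASA enclosure modules aboard the International Space Station and were euthanized and frozen on orbit. Ground habitat control mice lived in the same kind of module in an environmental simulator and were killed and frozen in parallel. The study made RNA libraries of 9 spaceflight and 9 ground control retinas, of which 9 and 7 are used here. Reduced representation bisulfite sequencing (RRBS), which reads methylation near CCGG sites, gave 8 of each group. Every library came from a single eye. Both eyes were thawed after return and the retina was dissected by hand, so that neighbouring eye tissue can enter a sample.

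Mitochondria fuse and divide continually. Mitofusins join the outer membranes, Opa1 joins the inner membranes and keeps the cristae closed, and the dynamin-related GTPase Dnm1l is recruited to the surface to pinch the organelle. Retinal ganglion cell axons run a long way without myelin before they leave the eye, and these cells are the ones lost in the inherited optic atrophies. In humans, OPA1 is the main gene of dominant optic atrophy, OPA3 is mutated in Costeff syndrome, WFS1 in Wolfram syndrome, and SLC25A46, RTN4IP1 and TMEM126A in further forms of optic atrophy.

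The stretches of promoter DNA that bear on the results are printed first, from the RefSeq promoter windows of GRCm38.p6, each running from 250 bases before to 50 bases after the annotated start. Windows were matched for 8 of the 9 genes used here. Opa3 (chr7:19228389-19246817, plus strand, 2 exons) is shown because its expression differed most between the groups among the 9, and Rtn4ip1 (chr10:43901807-43947863, plus strand, 9 exons) because its promoter held the member CpGs with the smallest p. Tmem126a (chr7:90450700-90457203, minus strand, 5 exons) is shown because its promoter was the only partly methylated one. In the windows of Rtn4ip1 and Tmem126a capitals mark CpGs that every one of the 16 RRBS libraries covered with 10 reads or more. In that of Opa3 they mark a motif described next.
Opa3, chr7:19228139-19228438: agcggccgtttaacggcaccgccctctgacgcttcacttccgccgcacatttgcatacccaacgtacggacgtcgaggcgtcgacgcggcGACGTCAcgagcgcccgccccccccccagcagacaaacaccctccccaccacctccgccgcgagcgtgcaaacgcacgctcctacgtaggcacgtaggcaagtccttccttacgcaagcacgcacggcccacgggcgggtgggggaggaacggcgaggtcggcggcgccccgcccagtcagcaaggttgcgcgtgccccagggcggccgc
Rtn4ip1, chr10:43901557-43901856: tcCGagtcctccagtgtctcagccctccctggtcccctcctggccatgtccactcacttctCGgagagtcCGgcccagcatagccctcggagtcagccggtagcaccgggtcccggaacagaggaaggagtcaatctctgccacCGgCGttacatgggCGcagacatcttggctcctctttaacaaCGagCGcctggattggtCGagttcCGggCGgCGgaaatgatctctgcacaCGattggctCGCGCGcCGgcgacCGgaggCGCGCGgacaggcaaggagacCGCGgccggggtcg
Tmem126a, chr7:90457154-90457453, minus strand: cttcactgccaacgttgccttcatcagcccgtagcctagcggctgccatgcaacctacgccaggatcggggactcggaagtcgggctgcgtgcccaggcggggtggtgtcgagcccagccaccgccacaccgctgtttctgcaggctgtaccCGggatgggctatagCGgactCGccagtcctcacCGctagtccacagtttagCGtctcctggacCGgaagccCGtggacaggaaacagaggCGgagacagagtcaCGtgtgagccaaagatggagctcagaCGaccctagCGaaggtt
The Opa3 window has 43 CpGs and none was read deeply enough in every library, since the 21 measured Opa3 promoter CpGs lie farther upstream, at -559 to -266 bp from the start. In the Rtn4ip1 window 23 of 30 CpGs were measured, and in the Tmem126a window 11 of 23.

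Opa1 (chr16:29579281-29663127, plus strand) is shown for a motif, whose letters are in capitals.
Opa1, chr16:29579084-29579383: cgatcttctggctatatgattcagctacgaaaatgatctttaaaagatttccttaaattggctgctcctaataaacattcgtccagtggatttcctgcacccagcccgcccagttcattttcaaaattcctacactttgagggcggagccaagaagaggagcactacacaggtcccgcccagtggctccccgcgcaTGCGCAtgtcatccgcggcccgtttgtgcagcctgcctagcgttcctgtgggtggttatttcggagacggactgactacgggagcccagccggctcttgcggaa
The letters TGCGCA, the core of the usual site of nuclear respiratory factor NRF1 and the same on both strands, begin at -54 bp from the Opa1 start used here, the curated transcript start at chr16:29579334, from which the window and the Opa1 CpG distances are also counted. That start lies 53 bp inside the gene as annotated, so from the gene's first base the letters begin at -1 bp. They occur in 2549 of 32851 promoter windows of the same length (7.76%) and in no window of the other 7 genes. The letters TGACGTC, the core of a CREB site, were found on either strand in 1053 windows (3.21%), and among the 8 genes only in that of Opa3, on the minus strand at -160 bp. The letters CCGGAAG, the core of a GABPA site, were found on either strand in 2910 windows (8.86%), those of Mfn1, Tmem126a and 1 of 2 Dnm1l windows included. A match of letters is a description and shows no binding.

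All 9 genes passed the filter of at least 1 FPKM (fragments per transcript length and library size) in all 16 RNA libraries. Levels below are in FPKM, which is per length and can be compared between genes. Dnm1l was the highest at 51.3 ± 8.22 FPKM (SD, n = 16 libraries), above 89.7% of the 12460 genes tested, and Mfn2 followed at 30.5 ± 2.67 FPKM. Next came Opa1 at 19.4 ± 1.78 FPKM and Wfs1 at 16.9 ± 2.90 FPKM, which differed from each other by less than the larger SD, although Opa1 was the higher in 13 of 16 libraries. Slc25a46 (11.96 ± 1.64 FPKM), Opa3 (10.8 ± 1.97 FPKM), Tmem126a (10.4 ± 1.68 FPKM) and Mfn1 (9.03 ± 0.565 FPKM) formed a row in which each neighbour was within the larger SD of the next. Rtn4ip1 was lowest at 2.76 ± 0.440 FPKM, above 7.24% of the genes tested. The retina thus held more RNA per length for the division GTPase than for any fusion GTPase, and more for Mfn2 than for Mfn1 in every library, with an Mfn2 to Mfn1 ratio of 3.24 ± 0.432 in spaceflight (SD, n = 9) and 3.60 ± 0.220 in ground control retinas (SD, n = 7).

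The libraries carried retinal RNA. All markers of rods (11 genes), retinal ganglion cells (11), bipolar cells (7) and Müller glia (6) reached 1 FPKM in all 16 libraries. Of the markers on the 9 lists that did so, none met the thresholds for a call, given with Opa3, between the groups. Only 1 of 16 lens, 2 of 8 corneal and skin epithelium, 1 of 7 blood and 0 of 7 skeletal muscle markers reached that level. The rest were not tested, so the lack of calls cannot show whether those tissues differed between the groups. Summed ganglion cell markers were 374 to 686 FPKM in spaceflight and 356 to 840 FPKM in ground control retinas. In bulk RNA, fewer cells of a type and less RNA per cell cannot be told apart. Tissue from outside the retina was present unevenly. Lens markers summed to 43170 FPKM in spaceflight mouse M22 and 58870 FPKM in ground control mouse M31, with medians of 149 and 495 FPKM in the spaceflight and ground control groups. Corneal and skin epithelium markers reached 2258 FPKM in M21 and 1063 FPKM in M22, with medians of 46.2 FPKM in spaceflight and 19.6 FPKM in ground control. Pigment epithelium markers summed to 1190 to 5909 FPKM in spaceflight and 1993 to 8918 FPKM in ground control, blood markers to 3.61 to 25.4 and 5.23 to 23.1 FPKM, and skeletal muscle markers to 1.87 to 168 and 1.303 to 94.6 FPKM in the same order of groups. Ground control mice M32 and M40 also stood apart, their genes deviating from the mean of all libraries with an SD of 0.42 and 0.49 on the log2 scale. The same SD was 0.40 for M21, 0.43 for M22 and 0.62 for M31, and 0.18 to 0.31 for the other 11 libraries. The part of these tissues and libraries in the differences below was not tested except by leaving libraries out.

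**Figure D1:**
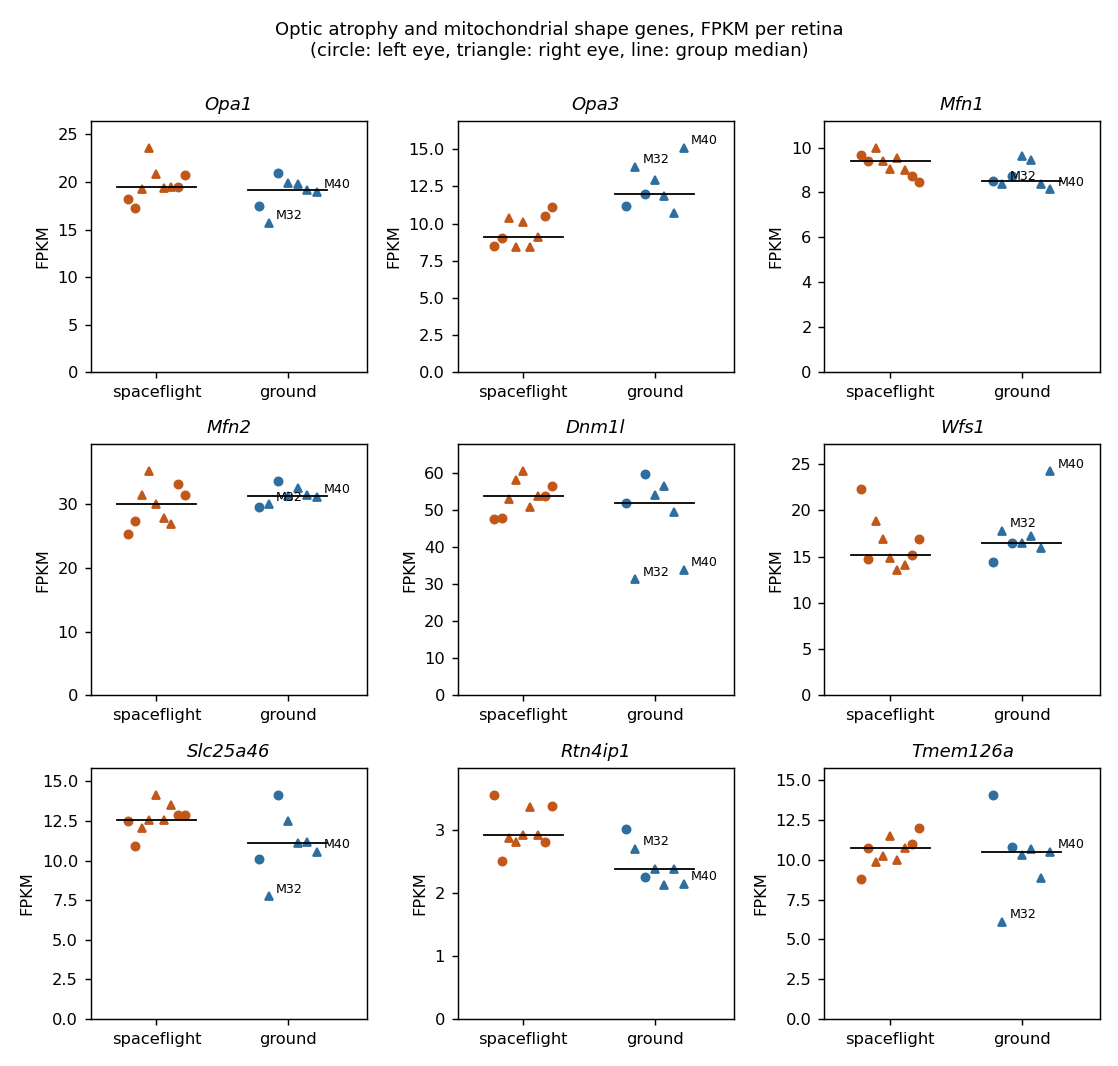
FPKM of each of the 9 genes in every RNA library, spaceflight (n = 9) left of ground control (n = 7), with a line at the group median. Opa3 lies lower in spaceflight retinas (8.43 to 11.1 FPKM) than in most ground control retinas (10.7 to 15.1 FPKM), and the 2 labelled ground control libraries M32 and M40 are far below the others for Dnm1l.

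Opa3, a mitochondrial membrane protein, was lower in spaceflight retinas. Its lowest, median and highest levels were 8.43, 9.06 and 11.1 FPKM in spaceflight retinas, against 10.7, 11.96 and 15.1 FPKM in ground control retinas. In 8 of 9 spaceflight libraries Opa3 was below the lowest ground control library, and the groups overlapped only because M30 at 11.1 FPKM exceeded ground control M36 at 10.7 FPKM. The share of tested genes with 8 or more spaceflight libraries below the lowest ground control library was 0.281%. Opa3 averaged 9.51 ± 1.02 FPKM in spaceflight (SD, n = 9) and 12.5 ± 1.56 FPKM (SD, n = 7) in ground control, a log2 difference of -0.39 (SE 0.087) on the log2(FPKM + 0.1) scale, or 0.763-fold. A stretch of 160 bp of the Opa3 gene overlaps Gm25134, a small nuclear RNA gene on the same strand. Reads of these genes may not be told apart there, and the part of Gm25134 in the Opa3 level was not tested. A gene was called at a fold of 1.2 or more, p of 0.05 or under and Benjamini-Hochberg adjusted p of 0.3 or under in limma, the thresholds of the study. By that rule 1 of the 9 genes was called, Opa3, against 24 of 12460 genes overall (0.193%) and 14 that were called lower (0.112%). The genes were chosen with these values known, so the count is no evidence about them.

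The Opa3 difference lay between -0.47 and -0.23 on the log2 scale in 31 alternative treatments of the table. It was -0.30 without M32 and M40, the ground control libraries in which Opa3 was highest at 13.8 and 15.1 FPKM. It was -0.41 without the lens-rich M22 and M31. Mouse M21 has labels that disagree on its group, and counted as ground control it gave -0.30. In right eyes alone the difference was -0.47 and in left eyes alone -0.24, with ground control eyes taken by library identifier. When 1 library at a time was left out the value ran from -0.43 to -0.34. Opa3 met the call in 12 of the 31 treatments, and in 6 of the 16 with 1 library left out. The gene was chosen with these values known, so these counts are a description.

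The ratio of Opa3 to another gene in the same library does not depend on how the library was scaled. The ratio to Opa1 was 0.357 to 0.539 with a median of 0.483 in spaceflight retinas, against 0.558 to 0.879 with a median of 0.639 in ground control retinas. These ranges did not overlap. The ratio to Dnm1l did not overlap either, at 0.145 to 0.197 in spaceflight and 0.200 to 0.445 in ground control, although the gap between the groups was narrow. Ratios to the other 6 genes overlapped, so 2 of 8 ratios separated the groups with M21 counted as spaceflight. M21, whose labels disagree, was at 0.468 for Opa1 and also inside the spaceflight range for Dnm1l. Counted as ground control, it would make both ratios overlap. With Opa1 in the denominator 0.0482% of all tested genes were lower in every spaceflight than in every ground control library, and with Dnm1l 0.0241%. With Mfn1, Mfn2, Wfs1, Slc25a46, Rtn4ip1 and Tmem126a in the denominator the share was 0.0883, 0.00803, 0, 0.0241, 0.682 and 0.00803%. For all 8 denominators every spaceflight library lay below the ground control median. The 8 ratios share Opa3, itself below its ground control median in all 9 spaceflight libraries, so they are not separate observations. No share over all genes was taken for this count. The ratios were formed after the values had been seen.

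**Figure D2:**
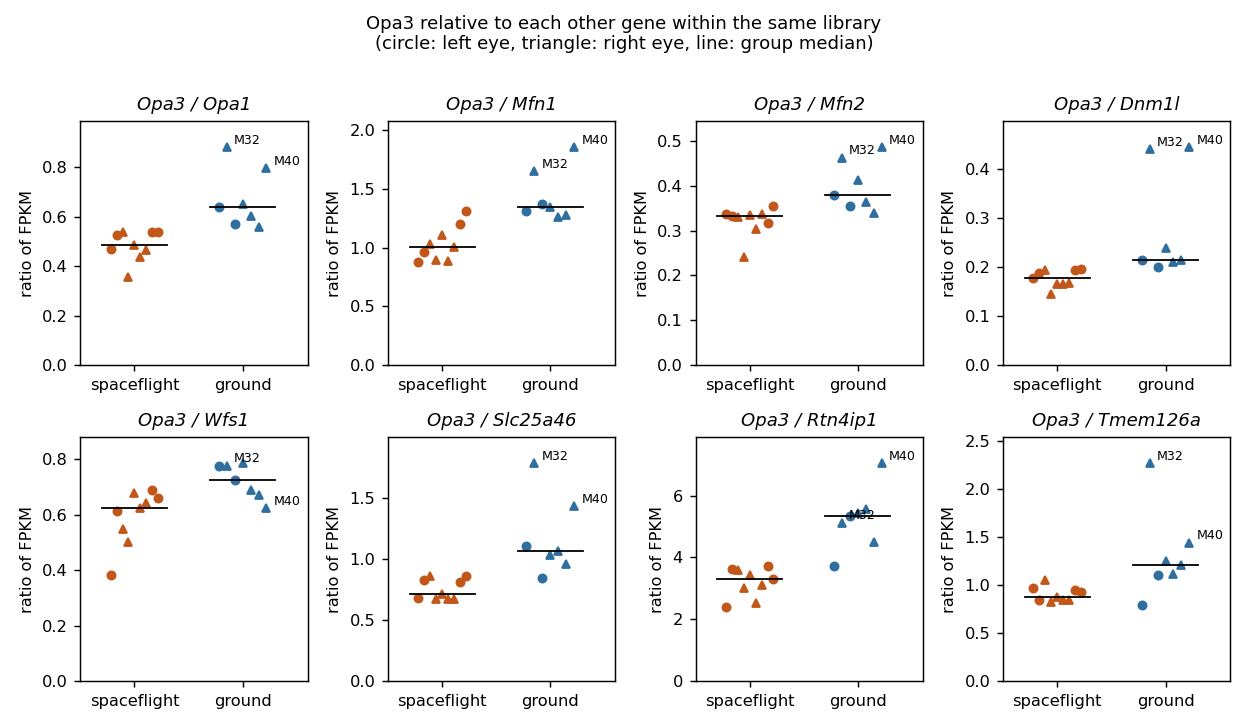
Ratio of Opa3 FPKM to the FPKM of each of the other 8 genes within the same library, spaceflight (n = 9) left of ground control (n = 7), with a line at the group median. Opa3 over Opa1 ran from 0.357 to 0.539 in spaceflight and from 0.558 to 0.879 in ground control, and the 2 highest points are M32 and M40.

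Rtn4ip1, a mitochondrial oxidoreductase that takes part in coenzyme Q synthesis, lay on the other side. Its levels were 2.51, 2.93 and 3.56 FPKM (lowest, median and highest) in spaceflight retinas, against 2.13, 2.38 and 3.01 FPKM in ground control retinas. All 9 spaceflight libraries were above the ground control median and 3 were above the highest ground control library. Of the 7 ground control libraries 5 were below the lowest spaceflight library. The groups overlapped because ground control M31 at 3.01 FPKM and M32 at 2.70 FPKM exceeded it. The means were 3.02 ± 0.340 FPKM in spaceflight (SD, n = 9) and 2.43 ± 0.322 FPKM (SD, n = 7) in ground control, with a log2 difference of 0.30 (SE 0.099). It was 0.39 when the lens-rich libraries M22 and M31 were left out. Qrsl1, which starts 65 bp away on the opposite strand and shares this promoter, averaged 3.08 ± 0.692 FPKM in spaceflight and 2.65 ± 0.398 FPKM in ground control (log2 difference 0.19, SE 0.14, limma adjusted p 0.564).

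Dnm1l (chr16:16312228-16359038, minus strand) was at 47.7, 53.9 and 60.6 FPKM (lowest, median and highest) in spaceflight retinas, against 31.4, 52.1 and 59.8 FPKM in ground control retinas. The log2 difference was 0.19 (SE 0.12). Ground control M32 at 31.4 FPKM and M40 at 33.98 FPKM were at 0.587 and 0.635 of the median of all libraries, and no other library was below 47.7 FPKM. Without those libraries the difference was -0.02. Slc25a46, an outer membrane member of the carrier family that takes part in fission and lipid exchange, showed 10.9, 12.5 and 14.2 FPKM in spaceflight and 7.76, 11.1 and 14.2 FPKM in ground control. Its log2 difference was 0.21 (SE 0.099), and 0.10 without M32 and M40. M32 was again the lowest, at 0.621 of the median, and it was also the lowest library for Tmem126a at 6.09 FPKM.

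The fusion GTPases overlapped widely between the groups. Opa1 was at 17.2, 19.4 and 23.6 FPKM (lowest, median and highest) in spaceflight and 15.7, 19.2 and 21.0 FPKM in ground control retinas, a log2 difference of 0.07 (SE 0.075). Mfn1 was at 8.47, 9.399 and 9.99 FPKM in spaceflight and 8.15, 8.53 and 9.62 FPKM in ground control, with a log2 difference of 0.08 (SE 0.061). Mfn2, which also tethers mitochondria to the endoplasmic reticulum, was at 25.3, 30.05 and 35.2 FPKM in spaceflight and 29.5, 31.3 and 33.7 FPKM in ground control, with a log2 difference of -0.08 (SE 0.072). The coefficient of variation of Mfn2 was 10.9% in spaceflight and 4.57% in ground control. A stretch of 639 bp of Mfn1 overlaps Gnb4 on the opposite strand. The aligner was run with its default settings, which take no account of the strand of the library, so reads of these genes may not be told apart there.

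Wfs1, wolframin of the endoplasmic reticulum, was at 13.5, 15.2 and 22.3 FPKM (lowest, median and highest) in spaceflight retinas, against 14.4, 16.5 and 24.2 FPKM in ground control retinas. The highest value of each group stood well above the rest, in M21 for spaceflight and in M40 for ground control, and the log2 difference was -0.09 (SE 0.11). Tmem126a, an inner membrane protein needed for complex I assembly, was at 8.80, 10.7 and 11.99 FPKM in spaceflight and 6.09, 10.5 and 14.1 FPKM in ground control, where both extremes were ground control libraries, M32 and M31. Its log2 difference was 0.08 (SE 0.13). Over the 9 genes 6 differences were positive and 3 negative, with a median of 0.08, beside -0.01 over all genes tested. Several of the smaller ones turned with the libraries used. Tmem126a was at -0.034 without M32. In right eyes alone (5 libraries a group) and left eyes alone (4 spaceflight and 2 ground control libraries) Dnm1l was at 0.33 and -0.12, Tmem126a at 0.20 and -0.22, Wfs1 at -0.22 and 0.15, and Opa1 at 0.13 and -0.022. Ground control eyes were taken by library identifier, with M31 and M33 left. The sample titles give M32 as left and M33 as right, and M32 was the lowest library for Dnm1l and Tmem126a. Fits by eye under the titles were not run, so these turns of sign depend on a disputed eye.

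**Figure D3:**
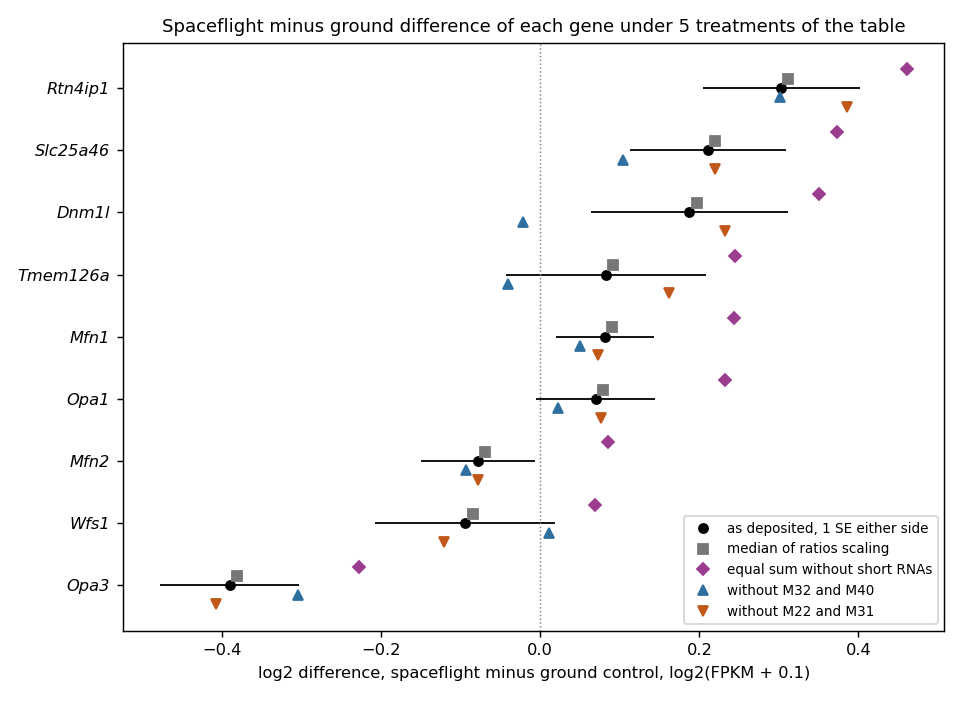
Log2 difference of each gene, spaceflight minus ground control, on the log2(FPKM + 0.1) scale, as deposited (black, with a line 1 SE to either side) and the values under 4 other treatments. Opa3 stays negative in all 5 and Dnm1l is at 0.19 with all libraries and at -0.02 without ground control M32 and M40. Scaling to an equal sum without short RNAs moves all 9 genes to the right.

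One other scaling mattered. Short structured RNAs (small nuclear, nucleolar and similar) took 37.6 to 65.7% of the FPKM of a spaceflight library and 51.5 to 68.4% of that of a ground control library. Scaling each library to an equal sum without them moved the median of all genes to 0.15, and changes are read relative to that. Opa3 was then at -0.23, Rtn4ip1 at 0.46, Slc25a46 at 0.37 and Dnm1l at 0.35, and the signs of Mfn2 (0.09) and Wfs1 (0.07) turned. With this scaling Opa3 no longer passed the thresholds of the study while Rtn4ip1, Slc25a46 and Dnm1l did, as did 2388 of all 12460 genes, 2347 of them higher in spaceflight. With median of ratios scaling Opa3 was at -0.38.

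Left and right eyes were compared within the spaceflight group, a comparison that the choice of genes did not use. None of the 9 genes met the call between 4 left and 5 right retinas, and none of 12460 genes did (0%), while 509 genes (4.09%) had an unadjusted limma p of 0.05 or under. Opa3 averaged 9.80 ± 1.23 FPKM in left (SD, n = 4) and 9.27 ± 0.898 FPKM (SD, n = 5) in right retinas, a log2 difference of left minus right of 0.08 (95% interval -0.16 to 0.32, limma adjusted p 0.920). Rtn4ip1 averaged 3.07 ± 0.490 FPKM in left and 2.98 ± 0.218 FPKM in right retinas, a log2 difference of 0.03 (95% interval -0.27 to 0.32, limma adjusted p 0.980). The remaining 7 genes had log2 differences between -0.12 for Opa1 and 0.13 for Wfs1.

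Pairs of the 9 genes varied together to different degrees over the 16 RNA libraries. Libraries share their scaling and the carry-over described above, so Pearson's r of log2(FPKM + 0.1) is given as a description only. The highest was between Dnm1l and Slc25a46 (0.81), then Opa1 and Slc25a46 (0.76) and Opa1 and Dnm1l (0.70). Without M32 and M40 these were 0.58, 0.61 and 0.80. The lowest was between Opa3 and Rtn4ip1 (-0.63), which was -0.17 once each group was centred on its own mean. Opa3 and Mfn1 came next at -0.57.

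Over all tested genes, those most like Opa3 across the 16 libraries were Nr4a3 (r 0.91), Per2 (r 0.90) and Wscd1 (r 0.87). Nr4a3 is an immediate early orphan nuclear receptor and Per2 a repressor of the circadian clock. Nr4a3 averaged 2.85 ± 0.668 FPKM in spaceflight (SD, n = 9) and 6.23 ± 1.98 FPKM (SD, n = 7) in ground control retinas, a log2 difference of -1.06 (SE 0.20, limma adjusted p 0.205) that met the call. Per2 averaged 6.85 ± 0.841 FPKM in spaceflight and 8.90 ± 1.65 FPKM in ground control, a log2 difference of -0.36 (SE 0.10, limma adjusted p 0.329) that did not. The r of Opa3 with Per2 was 0.86 over the 9 spaceflight libraries and 0.73 over the 7 ground control libraries, and 0.91 over all libraries without M32 and M40. Opa3 with Nr4a3 gave 0.70, 0.82 and 0.87 in the same order.

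Other members had unlike neighbours. Opa1 went most closely with Rspry1, Spire1 and Exoc3 (r 0.93 to 0.94), and Mfn2 with Tmx2, Npc1 and Ddb1 (r 0.89 to 0.91). Dnm1l went with Rab2b (r 0.98), with LOC100862068 (r 0.98) and with Ube2g1 (r 0.97), and 278 genes reached an r above 0.9 with it, against 1 gene for Opa3 and 13 for Opa1. The low M32 and M40 enter each of those 278 values.

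The genes around the 9 were taken as 6 lists, chosen with earlier results of these data known. Of 81 different list genes tested none met the call, and 7 had an unadjusted limma p of at most 0.05 (8.64%), 1 higher and 6 lower in spaceflight. Of all genes 11.4% did, 5.93% higher and 5.45% lower. The fission and fusion partners (20 tested) had a median log2 difference of 0.01. Their smallest p belonged to Gdap1, a fission factor of the outer membrane, at 10.3 ± 1.64 FPKM in spaceflight and 8.46 ± 1.71 FPKM in ground control (log2 difference 0.29, SE 0.13, limma adjusted p 0.433), and to Fam54b, now named Mtfr1l, at 13.7 ± 1.76 and 15.5 ± 1.32 FPKM in the same order (log2 difference -0.19, SE 0.088, limma adjusted p 0.438). The list of inner membrane shape, the MICOS complex and prohibitins (14 tested), had a median of -0.01. The MICOS subunit gene 2410015M20Rik, now Micos13, was at 22.7 ± 2.46 FPKM in spaceflight and 29.8 ± 8.16 FPKM in ground control (log2 difference -0.36, SE 0.13, limma adjusted p 0.378).

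The other inherited optic neuropathy genes (16 tested) had a median log2 difference of 0.03, and none was called. The mitophagy list (11 tested, median 0.01) held Pink1, the kinase that marks damaged mitochondria, at 77.3 ± 6.48 FPKM in spaceflight and 90.9 ± 13.2 FPKM in ground control (log2 difference -0.23, SE 0.086, limma adjusted p 0.378). Sqstm1, an autophagy receptor, was at 109 ± 9.46 FPKM in spaceflight and 132 ± 23.5 FPKM in ground control (log2 difference -0.27, SE 0.098, limma adjusted p 0.370). Mitochondrial transport along axons (8 tested, median 0.02) was led by Rhot1, which links mitochondria to motor proteins, with a log2 difference of 0.22 (SE 0.13, limma adjusted p 0.515). For mitochondrial mass and biogenesis (14 tested, median 0.00), Tomm40, the import channel of the outer membrane, was at 28.6 ± 1.78 FPKM in spaceflight and 34.4 ± 7.72 FPKM in ground control (log2 difference -0.24, SE 0.10, limma adjusted p 0.410). Pld6 and Fam54a, of the first list, averaged under 1 FPKM in both groups and were not tested. Leaving out M22 and M31 called 1427 of 12590 genes. Among them were 2 genes each of the fission and fusion, inner membrane and mitophagy lists, 1 of the mass list and none of the other 2 lists. The equal sum without short RNAs, which called 2388 of 12460 genes, called 7 of 20 genes of the fission and fusion list, 1 of 14 of the inner membrane list, 4 of 16 of the optic neuropathy list, 2 of 11 of the mitophagy list, 2 of 8 of the transport list and 3 of 14 of the mass list.

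Methylation was measured in other libraries of the same study and was not used to choose the genes. By the methods of the study, each retinal sample gave both DNA and RNA, so the methylation libraries are not an independent set of retinas. Expression and methylation are not paired by mouse here. A promoter here is 1000 bp to either side of a curated RefSeq start, and its methylation is the percent of reads that are methylated over CpGs covered by 10 reads or more in every library. Reads of a region are summed over its CpGs, so a read counts once at each CpG it covers. All 9 promoters were measured, over 6 CpGs in Opa1 to 57 in Slc25a46. None was called, and neither was any of 18539 promoters (0%, adjusted p of 0.05 or under in a quasi-binomial test). An unadjusted p at or below 0.05 was seen for 1085 (5.85%), and the lowest adjusted p was 0.0579.

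Of the 9 promoters 8 were nearly free of methylation. The Opa3 promoter was at 0.334 ± 0.153% in spaceflight (SD, n = 8) and 0.335 ± 0.108% (SD, n = 8) in ground control retinas (adjusted p 0.999). Its reads summed over CpGs were 751 to 1902 per library. The Opa1 promoter was at 0.650 ± 0.370% in spaceflight and 0.704 ± 0.710% in ground control, measured only 346 to 412 bp past the start and not over the NRF1 letters. Dnm1l (0.298 ± 0.110% in spaceflight and 0.280 ± 0.060% in ground control) and Mfn1 (0.454 ± 0.241% and 0.466 ± 0.229% in the same order) were as low, as were Mfn2 (0.535 ± 0.195% and 0.647 ± 0.180%) and Wfs1 (0.346 ± 0.118% and 0.411 ± 0.181%).

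Rtn4ip1 and Slc25a46 had the smallest unadjusted p among the 9 promoters. The Rtn4ip1 promoter was at 0.340, 0.461 and 0.869% (lowest, median and highest) in spaceflight retinas, against 0, 0.369 and 0.514% in ground control retinas. Pooled over reads this was 0.545% in spaceflight and 0.315% in ground control, a difference of 0.23 points (p 0.0290, adjusted p 0.789), and the ranges overlapped. The Slc25a46 promoter was at 0.270 ± 0.059% in spaceflight and 0.373 ± 0.067% in ground control, a pooled difference of -0.11 points (p 0.0435, adjusted p 0.849). Neither passed the adjustment, and both differences are a small fraction of a percentage point.

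The Rtn4ip1 CpGs behind this lie in the printed window. At chr10:43901767, at -40 bp from the start, methylation was 1.93 ± 1.198% in spaceflight and 0.187 ± 0.528% in ground control retinas (p 0.00769, adjusted p 0.865, 49 to 106 reads). At chr10:43901701 it was 2.95 ± 2.55% in spaceflight and 0.868 ± 1.63% in ground control, and at chr10:43901771 it was 1.09 ± 1.58% in spaceflight and 0% in all ground control libraries. Qrsl1 starts within this stretch as well. The smallest p of the other promoters were at chr5:36988988 in Wfs1 (2.36 ± 3.47% in spaceflight and 0% in ground control, p 0.0166) and chr4:147904435 in Mfn2 (0% in spaceflight and 0.732 ± 1.11% in ground control, p 0.0268). Over the 340 CpGs of the 9 genes, 5 had an unadjusted p of 0.05 or under (1.47%), against 4.09% of 1071573 CpGs in all, of which none was called (0%).

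**Figure D4:**
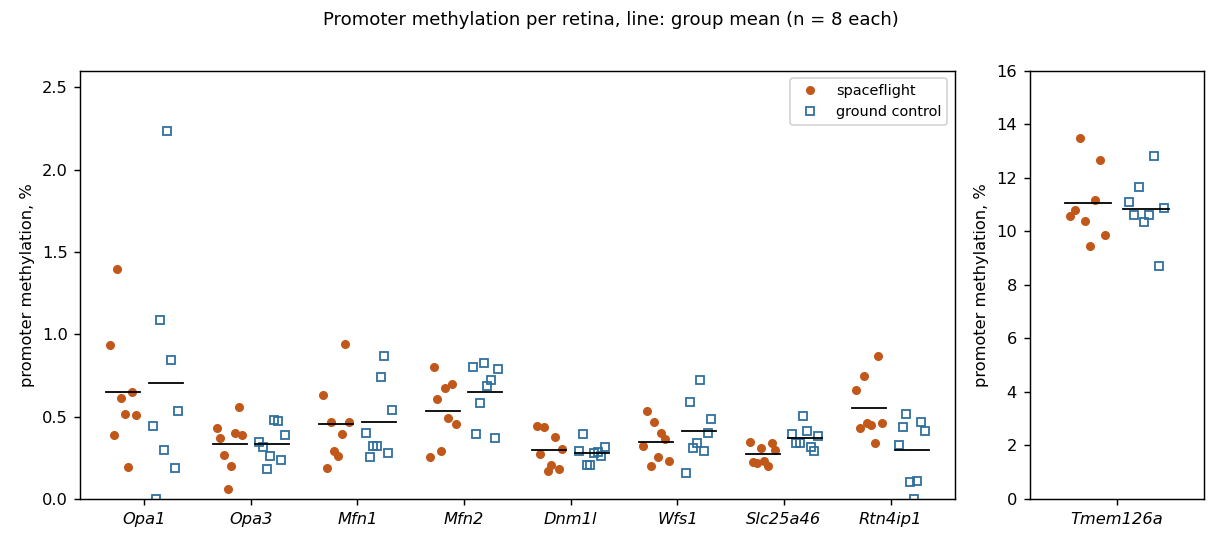
Percent methylated reads of each promoter in every RRBS library, spaceflight (n = 8) left of ground control (n = 8) for each gene, with a line at the group mean. The first 8 genes share the left axis, and Tmem126a, at 11.1% in spaceflight and 10.8% in ground control on average, has its own axis.

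Tmem126a was the exception, at 11.1 ± 1.38% in spaceflight and 10.8 ± 1.17% in ground control retinas (adjusted p 0.991). Of its 28 CpGs 2 were above 90% in both groups and the rest were at 2.55% or below. The 2 methylated CpGs are in the stretch below, in capitals, at -974 and -934 bp from the start, and the next measured CpG is at -97 bp.
Tmem126a, chr7:90458122-90458193, minus strand: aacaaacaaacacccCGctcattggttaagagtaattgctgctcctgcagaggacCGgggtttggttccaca
The outer CpG was methylated at 97.2 ± 1.46% in spaceflight and 96.7 ± 1.82% in ground control, and the inner one at 91.4 ± 7.10% and 93.0 ± 10.2% in the same order. The CpGs of the printed Tmem126a start window were between 0 and 2.55% in both groups.

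Gene bodies, from 1000 bp past the start to the gene end, held at least 3 measured CpGs for 5 of the 9 genes. None was called and neither was any of 17381 gene bodies (0%), while 1435 (8.26%) had an unadjusted p of 0.05 or under. Mfn2 was at 95.6 ± 0.779% in spaceflight and 95.4 ± 0.603% in ground control over 12 CpGs, and Rtn4ip1 at 92.8 ± 2.11% and 94.2 ± 1.19% over 5 CpGs. Opa1 was at 92.2 ± 1.02% in spaceflight and 93.0 ± 1.21% in ground control over 16 CpGs. Opa3 was at 86.9 ± 6.29% in spaceflight and 84.2 ± 6.30% in ground control (adjusted p 0.806). This was over only 3 CpGs, all in the untranslated part of its last exon, with as few as 34 reads summed over them. Mfn1 and Dnm1l had 1 measured gene body CpG each and Slc25a46 had 2, all at 86.7% or above on average, and Tmem126a had none.

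Wfs1 (chr5:36966104-36988982, minus strand, 8 exons) was the least methylated gene body, at 67.8 ± 3.59% in spaceflight and 69.8 ± 4.63% in ground control (pooled difference -2.35 points, adjusted p 0.779). Its 15 CpGs were uneven. Intronic CpGs 2960 to 3312 bp from the start were at 61.4 to 95.8% in spaceflight and 60.5 to 97.4% in ground control, and 4 CpGs of a coding exon 6766 to 6814 bp from the start, in capitals below, were partly methylated.
Wfs1, chr5:36982153-36982232, minus strand: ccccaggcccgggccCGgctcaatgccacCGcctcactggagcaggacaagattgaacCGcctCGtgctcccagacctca
In spaceflight retinas these 4 CpGs ran from 21.7 to 42.5% and in ground control from 30.2 to 49.2%. The mean was lower in spaceflight at each of the 4. The CpG at chr5:36982168 had the smallest p of them (21.7 ± 9.36% in spaceflight and 30.2 ± 8.25% in ground control, p 0.0865, adjusted p 0.865). None passed the test, and neighbouring CpGs share reads. Partial methylation was not confined to this stretch. Farther into the gene, chr5:36975436 was at 42.1 ± 8.91% in spaceflight and 46.7 ± 6.98% in ground control. The CpG at chr5:36975476 was at 52.6 ± 10.7% in spaceflight and 50.6 ± 8.94% in ground control, so its mean was higher in spaceflight.

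**Figure D5:**
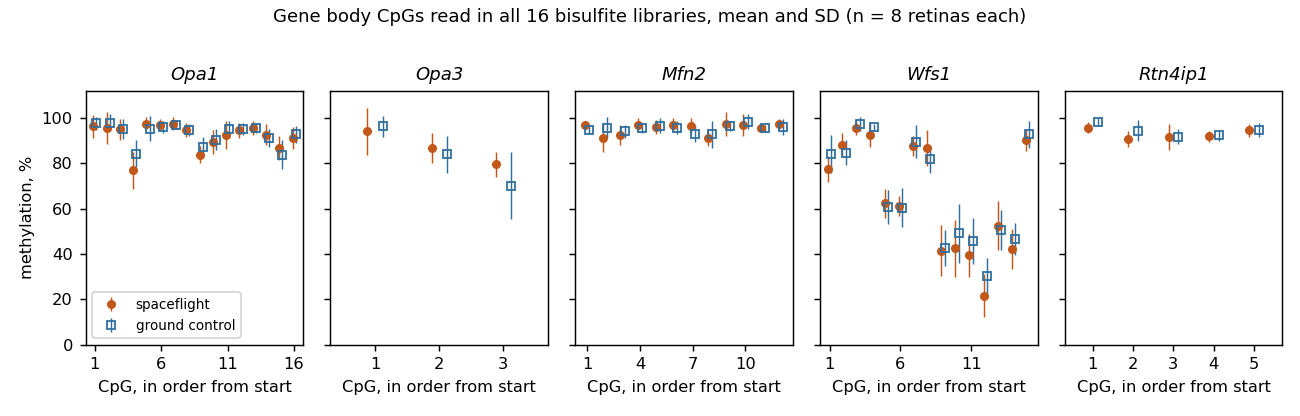
Methylation of each measured gene body CpG in order from the start, mean and SD of 8 spaceflight (filled circles) and 8 ground control retinas (open squares), for the 5 genes with at least 3 such CpGs. Opa1, Mfn2 and Rtn4ip1 lie at 77.1% or above throughout, and Wfs1 dips to 21.7% in spaceflight and 30.2% in ground control at its lowest CpG.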

How the data were processed

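Per the labels, RNA libraries were stranded and depleted of ribosomal RNA. The authors used Trimmomatic and TopHat2 with GRCm38 and deposited 1 table of FPKM. The table holds no read counts, so no counting error is stated. For RRBS the authors used Trim Galore 0.4.5 and Bismark and deposited, for each cytosine, the read count and the percent of methylated reads. Coverage summed over cytosines was 61652709 to 80242659 in spaceflight RRBS libraries and 59572205 to 105298542 in ground control libraries. A read counts in these sums once at each cytosine it covers. Percents near 0 cover counting error and PCR copies as well as biology.

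The members and lists were chosen with earlier results of these data known. Expression was fitted with limma 3.58.1 (R 4.3.3, trend, all 16 libraries) on log2(FPKM + 0.1) for 12460 genes at 1 FPKM or more in every library, with Benjamini-Hochberg adjustment over all of them. Strands of a CpG were added, and promoters, gene bodies and CpGs were compared by quasi-binomial logistic regression (Python 3.11.15, scipy 1.17.1) with dispersion not below 1. A single CpG call also needed 10 points. Fits were tested on simulated data. Text names all members, up to 3 list genes by smallest p, the 3 most like genes of up to 4 members, and the CpG of smallest p per region where that p was 0.05 or under or the region is described. A further list gene is not reported here.

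The source name and the read summary put the RNA library of M21 in spaceflight and its condition label in ground control, so it was counted as spaceflight. For 6 ground control RNA libraries labels and read summary give different mouse numbers. Their columns were used as a group. Ground control eyes were taken by library identifier, with left eyes in 2 of 7, M31 and M33. The sample titles instead put M32 left and M33 right. The 2 further columns of the table, also ground control, were not used. Expression p-values measure the spread between mice. Methylation p-values do so only where mice varied more than read counting alone would give. Where mice varied less, the floor on the dispersion applied and the p-value reflects read counting. Which methylation p-values these are was not listed. Alternatives tried were other pseudocounts, filters, scalings and thresholds, an eye term, M21 as ground control, other coverage minimums, limma on mean percents and leaving out libraries. Leaving out pairs of libraries and fits by eye were chosen after seeing the data.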

Additional observations from a re-analysis of the deposited data

Results flagged for a closer look

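Of 46 groups of member values checked for a sample far from the others, 2 were marked, and chance marks about 1 in 20 groups. Wfs1 stood at 24.2 FPKM in ground control mouse M40, against 14.4 to 17.8 FPKM in the other 6 ground control libraries. M40 is also one of the libraries whose genes deviated most from the mean, and its part in this value was not tested. The Opa3 gene body was at 73.5% in spaceflight mouse M23 by RRBS, against 84.4 to 93.8% in the other 7 spaceflight libraries, over only 3 CpGs.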

How the results depend on the processing

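The 24 genes called in expression became 13 with a pseudocount of 1 FPKM, 2388 with an equal sum without short RNAs, 8 with eye as a covariate and 0 with M21 as ground control or at an adjusted p of 0.05. Chosen after seeing the data, leaving out M22 and M31 gave 1427, also M21 808, M32 and M40 0, all of M22, M31, M32 and M40 1, right eyes alone 4 and left eyes alone 0. Leaving out 1 library gave 0 to 1400 genes, the highest without M31. Among the 9 genes, chosen with these values known, 1 was called (Opa3). The count became 0 with no filter, with M21 as ground control, with the eye covariate and at the stricter threshold. It was also 0 by eye and in both sets without M32 and M40. With the equal sum it was 3 (Rtn4ip1, Slc25a46 and Dnm1l, not Opa3). It was 2 without M22 and M31, whether or not M21 was left out too, and 0 to 3 with 1 library left out. Opa3 itself was called in 6 of 16 fits with 1 library left out. The causes were not tested.

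Left against right calls stayed at 0 under every alternative run. Left minus right log2 differences changed sign for Mfn2 (0.10 without M21 and M22, and -0.11 to 0.020 with 1 library left out), Rtn4ip1 (-0.046 to 0.12) and Tmem126a (-0.044 to 0.10). Promoter calls stayed at 0 except for 1 by limma on unweighted means and 0 to 2 with 1 library left out, none of them a member. Near 0 the sign of a promoter difference was not stable, in percentage points. By unweighted means it was -0.00031 for Opa1, -0.030 for Opa3, 0.022 for Mfn1, -0.0019 for Dnm1l and 0.0079 for Wfs1. With at least 5 reads it was -0.0082 for Opa3, and with at least 20 reads 0.027 for Mfn1 and -0.33 for Tmem126a. With 1 library left out it ran from -0.15 to 0.20 for Opa1, -0.038 to 0.050 for Opa3, -0.063 to 0.045 for Mfn1, -0.029 to 0.038 for Dnm1l and -0.20 to 0.34 for Tmem126a. Gene body and single CpG calls were 0 under every alternative run. Spaceflight and ground control retinas could not be paired, because replicate numbers mark separate mice of each group and were given in accession order.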
